A study of Mus musculus with 21 samples.

Results

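The 8 genes described here belong to purinergic signalling: the ATP-gated channels P2rx4 and P2rx7, the nucleotide receptors P2ry6, P2ry13 and P2ry14, the adenosine receptors Adora2a and Adora2b, and the ectonucleotidase Entpd1 (CD39). They were chosen by symbol, with earlier results of these data known. All 8 were found among the 23250 genes of the deposited table. Damaged or stimulated cells release ATP and other nucleotides, which macrophages sense through channels of the P2X family and G-protein-coupled receptors of the P2Y family. Enzymes on the cell surface, with CD39 first, trim ATP and ADP to AMP, and CD73 turns AMP into adenosine. Adenosine then acts on the receptors encoded by Adora2a and Adora2b, which raise cAMP and are best known in macrophages for damping inflammatory responses.

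The study asked what a soluble form of the mannose receptor does to macrophages. All cells were mouse bone-marrow-derived macrophages on the C57BL/6J background, grown for 7 days in medium containing GM-CSF from a producer line, and all were deficient in the mannose receptor, the controls included. One group was left untreated (0 h). Others received FcMR, which joins the extracellular part of the mannose receptor to the Fc region of a human antibody, or an isotype control for 4, 12 or 24 h. The 7 groups hold 3 libraries each, 21 in all. The labels describe neither the isotype protein further nor the separate mice or cultures behind a replicate number, so p-values measure the spread between these libraries, which may be technical. No untreated cells were sampled at 4, 12 or 24 h, so time in culture and exposure to a control protein cannot be told apart in any comparison with 0 h.

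Library totals ran from 5532225 to 66729533 counts. Mrc1, the gene of the mannose receptor, was at 0 to 11 counts in each library. All 8 macrophage and myeloid markers were present, with a summed level of 21541 to 36215 CPM (counts on a common library scale, here with TMM factors), while the 3 T cell markers summed to at most 0.654 CPM. Marker lists moved with the groups. Lyz2, at 16643 to 30533 CPM over the libraries, led the macrophage and myeloid list, and no other gene of it passed 1804 CPM. At 24 h this list stood at 32050 to 36215 CPM with isotype and 26680 to 28724 with FcMR. The mast cell list then stood at 9.71 to 14.2 and 19.2 to 24.2, and the fibroblast list at 0.644 to 1.18 and 2.98 to 4.39. Neutrophil and granulocyte markers, led by S100a8, summed to 500 to 583 CPM in untreated cells, 96.7 to 105 with isotype at 24 h and 140 to 148 with FcMR at 24 h, and Mpo and Elane were at 0 in the lowest library. The dendritic list, led by Ccr7, stood at 714 to 764 CPM with FcMR and 422 to 488 with isotype at 24 h, and Cd209a was at 0 in the lowest library. The endothelial list, led by Kdr, stood at 113 to 125 CPM with FcMR and 59.2 to 62 with isotype at 4 h. In bulk RNA, fewer cells of a type and less RNA per cell cannot be told apart, and the part of these lists in the results below was not tested. Libraries also differed in how GC-rich and GC-poor genes were represented. This GC tilt is the log2 deviation of the top 10% of genes by transcript GC content minus that of the bottom 10%, and it ran from -1.59 to 0.64 among the isotype 4 h libraries.

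A pair of libraries, FcMR 12 h replicate 1 and isotype 4 h replicate 3, have title numbers that stand in each other's place. Their GC tilts were also nearer to the other's group: -0.73 for FcMR 12 h replicate 1, beside 0.70 and 0.80 in its own group and -0.83 and -1.59 in isotype 4 h, and 0.64 for isotype 4 h replicate 3. Cd38 followed the labels, with 411 CPM in FcMR 12 h replicate 1 (299 and 299 in the other FcMR 12 h libraries) and 43.2 in isotype 4 h replicate 3 (49.5 and 59.7 in the other isotype 4 h libraries). Adora2a and P2ry6 leaned toward the other's group. FcMR 12 h replicate 1 held 42.5 CPM of Adora2a (93.9 and 104 in its group) and 33.2 of P2ry6 (55.4 and 59.6). Isotype 4 h replicate 3 held 60.4 CPM of Adora2a (23.8 and 14.6) and 35.2 of P2ry6 (16.5 and 21.1). The labels were kept. Without both libraries, every call between FcMR and isotype for the 8 genes given below held, and 5, 6 and 7 of the 8 were called at 4, 12 and 24 h in place of 4 each. The added calls were Entpd1 at 4 and 12 h (log2 fold change -0.63 and -0.63), Adora2a at 12 and 24 h (1.36 and 0.94), and P2ry6 (-0.50) and P2ry13 (0.56) at 24 h. P2ry14 and P2ry13 at 12 h were then 0.39 and 0.75, and Adora2a at 4 h was 2.13, all called by edgeR.

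Levels between genes were compared per kilobase of mean annotated transcript length. In untreated cells P2rx4 stood at 131 ± 5.08 and Entpd1 at 112 ± 12.1 CPM per kb (SD, n = 3), and their ranges overlapped. P2ry6 (38.9 ± 5.07) and P2ry14 (38.8 ± 2.12) followed and also overlapped. Adora2b came next at 16.8 ± 2, then P2rx7 at 10.5 ± 1.07 and Adora2a at 8.24 ± 1.3, which overlapped, and P2ry13 was lowest at 4.57 ± 1.04 CPM per kb. The order changed with treatment and time: P2rx4 stayed highest in all 7 groups, while Adora2a ranked 3 with FcMR at 4 h (81.1 ± 9.38 CPM per kb) and Adora2b was last at 24 h with isotype (3.11 ± 0.23) and FcMR (7.49 ± 0.764). With the longest transcript as the length, P2rx4 also ranked first in all 7 groups. In untreated cells Adora2b then stood above P2ry14, and P2ry13 above P2rx7 and Adora2a. Ranks moved in other groups as well, such as Adora2b with isotype at 4 h from 6 to 2.

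RefSeq windows before the start site (build GRCm38.p6) were matched for 6 of the 8 genes, P2rx4, P2rx7, P2ry13, P2ry14, Adora2b and Entpd1, with 11 windows among them. The stretches of P2rx7, Adora2b and P2ry14 are printed because these genes differed between FcMR and isotype at every time, a choice made after their values were seen. Each is written 5′ to 3′ on the gene's strand, before both its RefSeq and its GENCODE start, and capitals mark motif matches. They lie at chr5:122643677.0-122643910.0 (plus strand, 234 bases), chr11:62248734.0-62248983.0 (plus strand, 250 bases) and chr3:59153619.0-59153742.0 (minus strand, 124 bases).
P2rx7: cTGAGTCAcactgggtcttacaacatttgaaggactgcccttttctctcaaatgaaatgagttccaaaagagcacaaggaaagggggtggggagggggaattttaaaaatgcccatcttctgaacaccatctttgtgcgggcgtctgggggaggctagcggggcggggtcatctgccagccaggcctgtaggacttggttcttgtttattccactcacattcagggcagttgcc
Adora2b: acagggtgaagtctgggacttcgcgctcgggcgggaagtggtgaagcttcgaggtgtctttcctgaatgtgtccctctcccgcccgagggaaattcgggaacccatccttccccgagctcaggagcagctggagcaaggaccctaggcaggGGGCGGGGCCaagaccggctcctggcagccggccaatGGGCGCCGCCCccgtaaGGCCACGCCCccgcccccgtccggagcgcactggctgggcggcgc
P2ry14: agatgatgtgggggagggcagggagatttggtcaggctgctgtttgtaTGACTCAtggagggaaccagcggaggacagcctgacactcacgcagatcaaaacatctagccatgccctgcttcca
The motifs searched on both strands were a loose kappaB core (GGG and CC with 5 free bases between them), the AP-1 site TGANTCA, the CRE TGACGTCA, an ISRE core (GAAA and GAAA with 2 free bases between them) and a PU.1 core GAGGAAG. The P2rx7 and P2ry14 stretches each hold 1 AP-1 match, TGAGTCA at -249 and TGACTCA at -202 from the RefSeq start, and 6.75% of all 32817 windows hold such a match. The Adora2b stretch holds 4 kappaB-core matches, at -99, -62, -61 and -45, of which those at -62 and -61 overlap. That pattern occurs in 45.8% of all windows, so its presence separates few genes. A match is a description of letters and not a binding site.

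Against isotype, FcMR changed 4 of the 8 genes at 4 h, 4 at 12 h and 4 at 24 h (edgeR quasi-likelihood test with Benjamini-Hochberg adjustment over all 13468 genes tested, adjusted p under 0.05). Over all genes tested the same rule called 17.7% at 4 h, 16.1% at 12 h and 20.9% at 24 h. The 8 were chosen with earlier results of these data known, so setting them beside these shares is a description. By direction, 3 of the 8 were higher and 1 lower at 4 h, where 8.62% of all genes were higher and 9.13% lower. At 12 h 3 were higher and 1 lower, beside 8.61% and 7.49%, and at 24 h 2 were higher and 2 lower, beside 11.4% and 9.44%. P2rx7 was lower at all 3 times and P2ry14 and Adora2b were higher at all 3. Adora2a was also higher at 4 h, P2ry13 was higher at 12 h and Entpd1 was lower at 24 h. P2rx4 and P2ry6 were called at none of the 3 times. The 3 libraries of each group did not overlap for 5 genes at 4 h, 5 at 12 h and 7 at 24 h, against 29.7%, 35.4% and 34.4% of all genes. The median log2 fold change of the 8 genes was 0.20, 0.23 and 0.21 at 4, 12 and 24 h, beside -0.073, -0.017 and 0.006 over all genes.

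**Figure D1:**
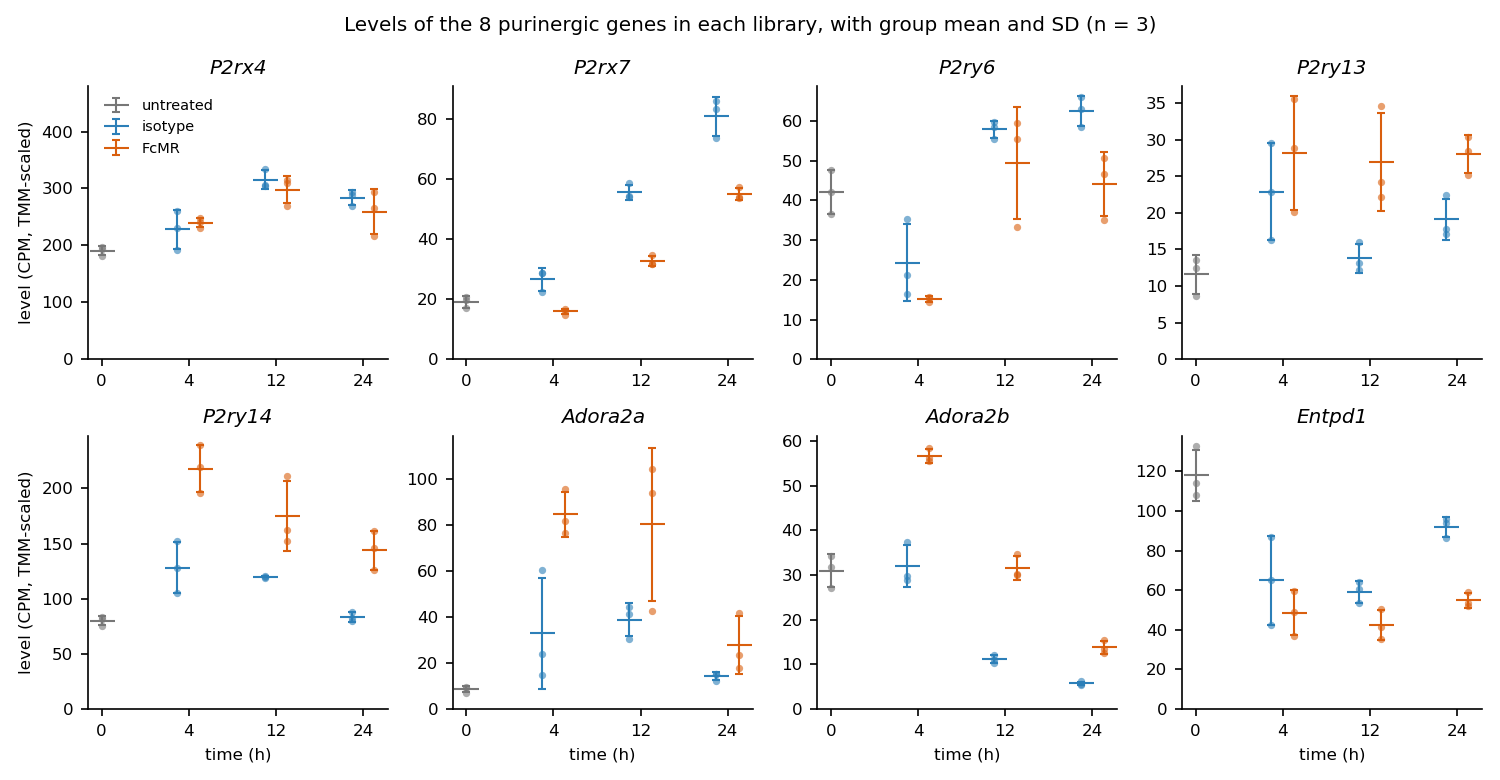
Levels of the 8 genes in each library (points, CPM after TMM scaling, linear axis from 0) against time, with the group mean and SD (n = 3) for untreated, isotype and FcMR cells. The FcMR points of P2rx7 lie below and those of P2ry14 and Adora2b above the isotype points at all 3 times, while P2rx4 overlaps throughout.

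P2rx7 encodes the ATP-gated channel that opens at high ATP and is known as a trigger of NLRP3 inflammasome activation. Untreated cells stood at 19.6, 20.9 and 17.1 CPM. At 4 h the isotype libraries held 28.9, 22.4 and 28.6 CPM and the FcMR libraries 14.9, 16.7 and 16.2. At 12 h isotype held 58.6, 54.4 and 54.2 CPM and FcMR 31.6, 31.9 and 34.7. At 24 h isotype held 73.7, 86 and 83.3 CPM and FcMR 53.7, 54.2 and 57.5. All FcMR libraries were below all isotype libraries of their time, and in both treatments every 24 h library was above every 4 h library. The FcMR level was 1.67-fold lower at 4 h (log2 fold change -0.74 ± 0.106, standard error; edgeR adjusted p = 8.41e-05), 1.7-fold lower at 12 h (-0.77 ± 0.0997; edgeR adjusted p = 2.52e-05) and 1.47-fold lower at 24 h (-0.55 ± 0.0991; edgeR adjusted p = 0.000462). A joint edgeR test, which asks if the difference from isotype changed between the 3 times, gave an adjusted p of 0.55. Against untreated cells, P2rx7 rose with isotype by 0.47, 1.53 and 2.07 on the log2 scale at 4, 12 and 24 h. With FcMR the same differences were -0.27, 0.77 and 1.52, all called by edgeR, but the fall at 4 h (adjusted p = 0.0407) was called in only 5 of 18 alternative settings.

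P2rx4, the other ATP-gated channel and one that sits largely on lysosomes and the cell surface, was the member with the smallest differences between FcMR and isotype. Its levels at 4 h were 231, 192 and 261 CPM with isotype and 231, 248 and 241 with FcMR. At 12 h they were 304, 306 and 334 against 270, 314 and 309 CPM, and at 24 h 269, 293 and 289 against 266, 216 and 294. The groups overlapped at each time. The log2 fold changes were 0.07, -0.08 and -0.13, and approximate 95% intervals from the standard error of 0.111 ran from -0.15 to 0.29, from -0.30 to 0.14 and from -0.35 to 0.08. Against the untreated 182, 197 and 193 CPM, P2rx4 rose with isotype by 0.72 at 12 h and 0.57 at 24 h on the log2 scale (edgeR adjusted p = 4.45e-05 and 0.000438). With FcMR it rose by 0.33, 0.64 and 0.44 at 4, 12 and 24 h, and the 4 h rise was not called without untreated replicate 1 (0.30; edgeR adjusted p = 0.0744).

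Among the P2Y receptors, P2ry14, the receptor for UDP-glucose and related UDP-sugars, was higher with FcMR. Untreated cells held 82, 83.3 and 75.2 CPM. At 4 h isotype held 128, 152 and 105 CPM and FcMR 239, 219 and 196. At 12 h isotype held 120, 121 and 119 CPM and FcMR 211, 162 and 152. At 24 h isotype was back at 88, 79.5 and 82.8 CPM, while FcMR held 146, 161 and 126. The lowest FcMR library was above the highest isotype library at each time. The log2 fold changes were 0.77 ± 0.133 at 4 h, 0.54 ± 0.132 at 12 h and 0.79 ± 0.134 at 24 h (standard errors; edgeR adjusted p = 0.000553, 0.00722 and 0.000265). At 12 h the difference was 0.39 and not called (edgeR adjusted p = 0.0731) without FcMR replicate 1, the highest library of its group, whose GC tilt was -0.73 beside 0.70 and 0.80 in the other FcMR 12 h libraries. Against untreated cells, isotype differed by 0.68 and 0.58 at 4 and 12 h, both called, and by 0.06 at 24 h, which was not. The 4 h value was 0.35 with a correction for GC content. FcMR remained higher than untreated at each time, by 1.44, 1.13 and 0.85 on the log2 scale.

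P2ry13, an ADP receptor, stood at 12.5, 13.6 and 8.58 CPM in untreated cells. With isotype it held 22.8, 29.6 and 16.3 CPM at 4 h, 16, 13.2 and 12.2 at 12 h and 22.4, 17.8 and 17.1 at 24 h. With FcMR it held 35.6, 28.8 and 20.1 CPM at 4 h, 34.6, 24.2 and 22.2 at 12 h and 28.4, 30.4 and 25.2 at 24 h. The groups overlapped at 4 h and were apart at 12 and 24 h. The difference was called at 12 h only, with a log2 fold change of 0.97 ± 0.237 (edgeR adjusted p = 0.0077), and the values at 4 and 24 h were 0.32 and 0.55 (edgeR adjusted p = 0.403 and 0.118). The 4 h value ran from 0.13 to 0.58 with 1 library left out. The 12 h call was lost without FcMR replicate 1 (0.75; edgeR adjusted p = 0.0595) or without isotype replicate 3 (0.88; edgeR adjusted p = 0.054). With FcMR the gene was higher than in untreated cells by 1.29, 1.22 and 1.27 at the 3 times, and with isotype by 0.97 at 4 h and 0.72 at 24 h. The isotype call at 24 h was lost without isotype replicate 1 (0.62) or untreated replicate 3 (0.55). P2ry13 and P2ry14 both lie inside Med12l on the opposite strand, with no shared exon, and the library kit as labelled names no strand marking. Med12l had 377 counts over all 21 libraries.

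P2ry6, a receptor for UDP that is known for its part in phagocytosis by microglia, was called at none of the 3 times. At 4 h it stood at 16.5, 21.1 and 35.2 CPM with isotype and 15.7, 15.5 and 14.3 with FcMR. At 12 h isotype held 55.5, 59.7 and 58.5 CPM and FcMR 33.2, 55.4 and 59.6. At 24 h isotype held 62.9, 58.6 and 66 CPM and FcMR 46.6, 35 and 50.6. The groups overlapped only at 12 h, where FcMR replicate 1 stood apart from the other FcMR libraries. The log2 fold changes were -0.68 ± 0.239, -0.23 ± 0.222 and -0.51 ± 0.225 (edgeR adjusted p = 0.0579, 0.609 and 0.128). The 4 h value was -0.30 without isotype replicate 3 and -0.87, then called (edgeR adjusted p = 0.0182), without isotype replicate 1. With a correction for GC content the 4 h and 24 h values were -0.74 and -0.46, both called (edgeR adjusted p = 0.00626 and 0.0427). Against the untreated 47.7, 36.7 and 42.2 CPM, P2ry6 fell at 4 h by 0.78 with isotype and by 1.47 with FcMR on the log2 scale (edgeR adjusted p = 0.0136 and 5.25e-05). The isotype call was lost without isotype replicate 1 (-0.59) or untreated replicate 1 (-0.69). At 12 and 24 h isotype stood above untreated cells with no overlap (0.46 and 0.57; edgeR adjusted p = 0.113 and 0.0501), and the 24 h difference was called in 10 of 18 alternative settings.

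Adora2b, the lower-affinity adenosine receptor, was higher with FcMR than isotype at every time. Untreated cells held 31.9, 27 and 34.2 CPM. At 4 h isotype held 28.9, 29.8 and 37.4 CPM and FcMR 55.5, 56.2 and 58.5. At 12 h isotype held 10.4, 11 and 12.2 CPM and FcMR 30.2, 29.9 and 34.7. At 24 h isotype held 5.59, 6.22 and 5.41 CPM and FcMR 13.5, 12.6 and 15.4. All FcMR libraries were above all isotype libraries of their time, and in both treatments every 24 h library was below every 4 h library. The FcMR level was 1.77-fold higher at 4 h (log2 fold change 0.82 ± 0.117; edgeR adjusted p = 8.31e-05), 2.82-fold higher at 12 h (1.49 ± 0.119; edgeR adjusted p = 1.02e-07) and 2.39-fold higher at 24 h (1.26 ± 0.132; edgeR adjusted p = 1.41e-06). It was called at each time in all 18 alternative settings. Against untreated cells, isotype differed by 0.05 at 4 h, which was not called, and fell by 1.46 at 12 h and 2.43 at 24 h on the log2 scale. FcMR rose by 0.87 at 4 h, differed by 0.03 at 12 h (edgeR adjusted p = 0.839) and fell by 1.17 at 24 h. The neutrophil and granulocyte list was also lower at 24 h than in untreated cells, and higher then with FcMR than isotype, as given above. This list overlapped between the treatments at 4 h, with 386 to 514 CPM for isotype and 381 to 443 for FcMR. At 12 h it overlapped too, with 136 to 178 CPM for isotype and 168 to 273 for FcMR. The endothelial list was higher with FcMR at 4 h, as given above, and at 12 h (49.8 to 57 CPM, isotype 36.8 to 42.3). At 24 h it overlapped, with 25.8 to 32.8 CPM for isotype and 28.8 to 31.1 for FcMR. The dendritic list was higher with FcMR at 4 h (456 to 573 CPM, isotype 301 to 437) and at 24 h, and overlapped at 12 h. The part of these lists in the Adora2b values was not tested.

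In the joint edgeR test 11% of all genes were called, and the count of 1 among the 8 lies near that share. Adora2b was that gene, with an FcMR effect that differed over the 3 times (edgeR adjusted p = 0.0306). That call was lost in 9 of 18 fits with 1 library left out and in 5 of 12 other settings, with adjusted p from 0.00955 to 0.159 over all of them. With the GC correction P2ry14 was called (edgeR adjusted p = 0.0113) and Adora2b was not (0.077), and with the replicate block as well both were called (0.0109 and 0.0179).

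Adora2a, the high-affinity adenosine receptor, had the largest rise from untreated cells and the widest spread between replicates. Untreated cells held 8.94, 7.08 and 9.73 CPM. At 4 h isotype held 23.8, 14.6 and 60.4 CPM and FcMR 76.5, 95.4 and 81.6. At 12 h isotype held 30.6, 44.4 and 41.4 CPM and FcMR 42.5, 93.9 and 104. At 24 h isotype held 12.2, 15.3 and 15.4 CPM and FcMR 23.6, 17.9 and 41.9. The groups were apart at 4 and 24 h and overlapped at 12 h through FcMR replicate 1. The log2 fold change was 1.34 ± 0.411 at 4 h (edgeR adjusted p = 0.0305), and 1.05 ± 0.401 at 12 h and 0.94 ± 0.427 at 24 h were not called (edgeR adjusted p = 0.0903 and 0.14). Compared with untreated cells, Adora2a was 9.92-fold higher with FcMR at 4 h, 9.42-fold at 12 h and 3.22-fold at 24 h. The log2 values were 3.31, 3.24 and 1.69 (edgeR adjusted p = 7.76e-06, 8.94e-06 and 0.00355). With isotype Adora2a was 3.92-fold higher at 4 h and 4.54-fold at 12 h. The 24 h value of 0.75 on the log2 scale was not called (edgeR adjusted p = 0.191), though the groups did not overlap. It was called in 4 of 18 alternative settings, such as at 1.22 with a correction for GC content (edgeR adjusted p = 2.19e-06). The isotype rise at 4 h, 1.97 on the log2 scale, was 1.19 without isotype replicate 3.

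The Adora2a call between FcMR and isotype at 4 h rested on single libraries. There the difference was 2.13 without isotype replicate 3, and it was not called without FcMR replicate 2 (1.25), isotype replicate 1 (1.19) or isotype replicate 2 (1.04), nor when only the libraries compared were fitted (1.34; edgeR adjusted p = 0.135). At 12 h, where the edgeR fit of all libraries made no call, it was 1.35 and called without FcMR replicate 1 (edgeR adjusted p = 0.0253), and DESeq2 called it at 1.06 (adjusted p = 0.0424). At 24 h it ran from 0.53 without FcMR replicate 3 to 1.20 without FcMR replicate 2, and no fit without 1 library called it. Adora2a transcripts are 60.5% GC, the 97.6th percentile of the genes tested. Its highest library had the highest GC tilt in isotype 4 h (0.64 beside -0.83 and -1.59), FcMR 4 h (-0.21 beside -0.40 and -0.55), FcMR 12 h (0.80 beside -0.73 and 0.70) and FcMR 24 h (0.41 beside -0.35 and -1.26), but not in untreated cells or with isotype at 12 or 24 h. The part of GC content in the Adora2a spread was not tested. With a correction for GC content FcMR was called higher at 12 and 24 h too (log2 1.27 and 1.13; edgeR adjusted p = 3.97e-07 and 5.24e-06).

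Entpd1, the surface enzyme that hydrolyses ATP and ADP, was below the untreated 114, 133 and 108 CPM in every treated library. At 4 h isotype held 65.3, 87.1 and 42.3 CPM and FcMR 59.6, 49.2 and 37.1. At 12 h isotype held 63.9, 60.4 and 53.3 CPM and FcMR 50.3, 41.5 and 35.3. At 24 h isotype held 93.9, 95.9 and 86.4 CPM and FcMR 53.6, 59.3 and 51.9. The groups overlapped at 4 h and were apart at 12 and 24 h. FcMR was 1.67-fold lower than isotype at 24 h (log2 fold change -0.74 ± 0.202; edgeR adjusted p = 0.0129), and the values of -0.40 at 4 h and -0.48 at 12 h were not called (edgeR adjusted p = 0.198 and 0.127). The 24 h call was lost without FcMR replicate 1 (-0.72), isotype replicate 1 (-0.72) or isotype replicate 2 (-0.70), and in limma on the deposited normalized table (-0.61; adjusted p = 0.104). The 4 h difference ran from -0.10 without isotype replicate 2 (edgeR adjusted p = 0.831) to -0.63 without isotype replicate 3, which was called (edgeR adjusted p = 0.0183). Compared with untreated cells, Entpd1 was 2.42-fold, 2.8-fold and 2.15-fold lower with FcMR at 4, 12 and 24 h. With isotype Entpd1 was 1.83-fold and 2-fold lower at 4 and 12 h. This 4 h call was lost in limma on the deposited normalized table (-0.63; adjusted p = 0.0546) and with only the libraries compared (-0.87; edgeR adjusted p = 0.0567). The 24 h difference of -0.36 on the log2 scale was not called (edgeR adjusted p = 0.158). It was called in 3 of 18 alternative settings, such as at -0.48 with a correction for GC content (edgeR adjusted p = 0.00822).

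**Figure D2:**
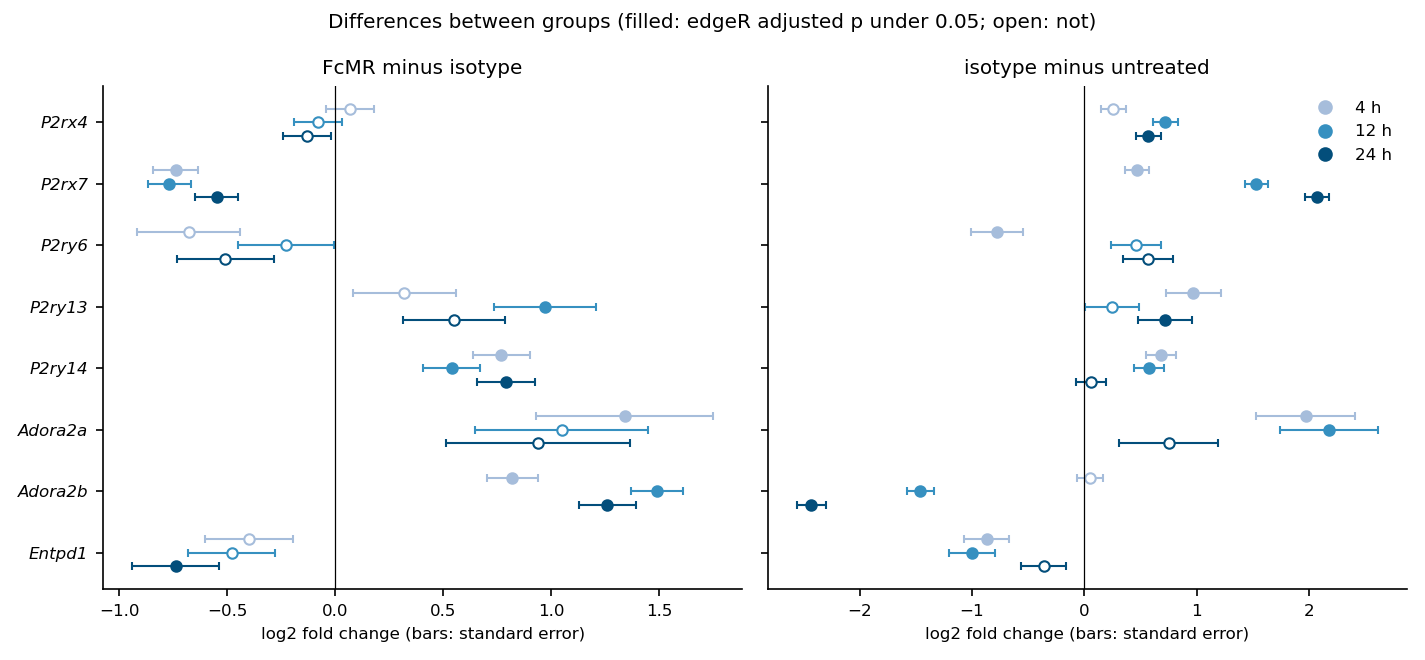
Log2 fold changes of the 8 genes at 4, 12 and 24 h for FcMR minus isotype (left) and isotype minus untreated (right), with standard errors. Filled points passed the edgeR adjusted p of 0.05. P2rx7 lies left of 0 in the left panel and right of 0 in the right panel, and Adora2b at 12 and 24 h the other way round; the panels share the isotype libraries.

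Counted over the 8 genes, isotype differed from untreated cells for 6 at 4 h, 6 at 12 h and 4 at 24 h, where edgeR called 35.6%, 41.6% and 42.2% of all genes tested. FcMR differed from untreated cells for 8, 6 and 7 of the 8, beside 48.2%, 48.1% and 51.4% of all genes. Both comparisons use the same 3 untreated libraries. In both, P2rx4 and P2rx7 stood higher at 12 and 24 h, P2ry13 was higher at 4 and 24 h, P2ry14 and Adora2a were higher at 4 and 12 h, and Adora2b was lower at 24 h. Entpd1 was lower in both at 4 and 12 h, as was P2ry6 at 4 h.

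Of the 35 other genes listed for receptors, enzymes, and release or transport of nucleotides and nucleosides, 32 were in the table and 27 passed the expression filter. This list too was drawn up with earlier results of these data known. FcMR against isotype called 7 at 4 h (3 higher, 4 lower), 5 at 12 h (3 higher, 2 lower) and 13 at 24 h (7 higher, 6 lower). Over all genes tested, edgeR called 17.7%, 16.1% and 20.9% at these times, and the 5 of 27 at 12 h lie near that share. At 24 h the count was 7 without isotype replicate 1, and 8 without any one of isotype replicate 2, FcMR replicate 1 and FcMR replicate 2. The median log2 fold changes of the 27 were -0.08, -0.18 and -0.06, beside -0.073, -0.017 and 0.006 over all genes.

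Surface enzymes held the largest rises. Cd38, an enzyme that consumes NAD and makes cyclic ADP-ribose, stood at 49.5, 59.7 and 43.2 CPM with isotype and 136, 121 and 116 with FcMR at 4 h. At 24 h it stood at 61.1, 64.5 and 66.8 CPM against 299, 404 and 292. The FcMR level of Cd38 was 2.45-fold, 4.4-fold and 5.17-fold higher at 4, 12 and 24 h (edgeR adjusted p = 1.44e-05, 3.57e-08 and 5.25e-09), and the joint edgeR test called its change over time (adjusted p = 0.0063). Enpp4, a phosphodiesterase of the cell surface, was 2.37-fold, 2.7-fold and 4.63-fold higher (edgeR adjusted p = 0.00099, 0.000179 and 4.84e-06). Bst1, a relative of Cd38, rose at 24 h (1.36-fold), while Enpp1, which splits ATP to AMP and pyrophosphate, fell at 24 h (2.61-fold; edgeR adjusted p = 0.00317). Nt5e (CD73), chosen after its values were seen because it makes adenosine from AMP, was not called between FcMR and isotype. Its log2 fold changes were -0.81, -0.59 and -0.19 at 4, 12 and 24 h (edgeR adjusted p = 0.058, 0.243 and 0.691). The Nt5e groups were apart at 4 and 24 h and overlapped at 12 h. In untreated cells it held 21.4, 22.7 and 26.6 CPM, and at 12 h it held 2.69, 2.05 and 2.2 with isotype and 2.57, 1.57 and 0.68 with FcMR. Nt5e was 10.1-fold lower with isotype and 15.1-fold lower with FcMR than in untreated cells at 12 h (edgeR adjusted p = 3.19e-08 and 4.53e-09). The fall was smaller at the other times: 3.32-fold and 5.82-fold at 4 h, and 2.55-fold and 2.91-fold at 24 h. At 24 h Nt5e held 9.81, 9.11 and 8.75 CPM with isotype and 7.5, 8.16 and 8.66 with FcMR.

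Among other receptors, P2ry1, an ADP receptor, was lower with FcMR than isotype at 4 and 24 h (log2 fold change -0.65 and -0.89; edgeR adjusted p = 0.0215 and 0.00153). P2rx5, a further ATP-gated channel, was lower at 4 h (-0.42) and higher at 24 h (0.47), and the joint edgeR test called that change (adjusted p = 0.0116). P2ry10, a receptor of lysophospholipids despite its name, was higher at 24 h (0.63; edgeR adjusted p = 0.0339). In nucleoside handling, Pnp, which splits inosine and guanosine, was higher at all 3 times (0.96, 0.63 and 0.44). Adk, which phosphorylates adenosine, was lower at 12 and 24 h (-0.75 and -1.02; edgeR adjusted p = 0.00147 and 4.74e-05), and the joint edgeR test called its change over time (adjusted p = 0.00502). Entpd6, an intracellular relative of Entpd1, was lower at 4 h (-0.88; edgeR adjusted p = 0.00223). The nucleoside transporter Slc29a3 of lysosomes was lower at all 3 times (-0.36, -0.51 and -0.43), and its plasma membrane relative Slc29a1 was lower at 24 h (-0.73; edgeR adjusted p = 0.0475).

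Several of these calls rested on single libraries or on the setting used. P2ry10 and Slc29a1 at 24 h were not called without FcMR replicate 1 (0.67 and -0.69), FcMR replicate 2 (0.39 and -0.48) or any one of the isotype libraries (0.60 to 0.66 for P2ry10, -0.74 to -0.70 for Slc29a1). Both were also lost with no expression filter (0.65 and -0.72) and with only the libraries compared (0.62 and -0.75). P2ry10 was lost too after thinning (0.59) and in limma on the normalized table (0.56). Pnp at 24 h was not called without FcMR replicate 1 (0.36), FcMR replicate 2 (0.40), isotype replicate 1 (0.43) or isotype replicate 2 (0.43). The same held for Pnp after thinning (0.42) and with only the libraries compared (0.44). P2ry1 at 4 h was lost without any one of the FcMR libraries (-0.68 to -0.58) or isotype replicate 2 (-0.52). It was also lost with DESeq2 (-0.58), in limma on the normalized table (-0.54), with no filter (-0.53) and with only the libraries compared (-0.66). P2rx5 at 4 h was lost without any one of the FcMR libraries (-0.49 to -0.31) or isotype replicate 1 (-0.34) or 3 (-0.33), and at 24 h without FcMR replicate 3 (0.39) or isotype replicate 1 (0.45) or 2 (0.45). The P2rx5 groups overlapped at 4 h. That call was also lost with DESeq2 (-0.35), RLE factors (-0.35), limma-voom (-0.40), the replicate block (-0.41) and thinning (-0.30). It was lost too in limma on the normalized table (-0.38), with no filter (-0.30) and with only the libraries compared (-0.43). Without both FcMR 12 h replicate 1 and isotype 4 h replicate 3 it was -0.33 and not called. Leaving out 1 library ended no call of Cd38, Enpp4, Enpp1, Bst1, Adk, Entpd6 or Slc29a3 between FcMR and isotype, but other settings ended some. Slc29a3 was not called at 24 h with the GC correction (-0.30), nor at 4 h in limma on the normalized table (-0.24), with no expression filter (-0.24) or with only the libraries compared (-0.37). Bst1 was not called at 24 h with the GC correction (0.35) or in that limma fit (0.36), Adk at 12 h in that limma fit (-0.73), and Entpd6 at 4 h with only the libraries compared (-0.88).

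**Figure D3:**
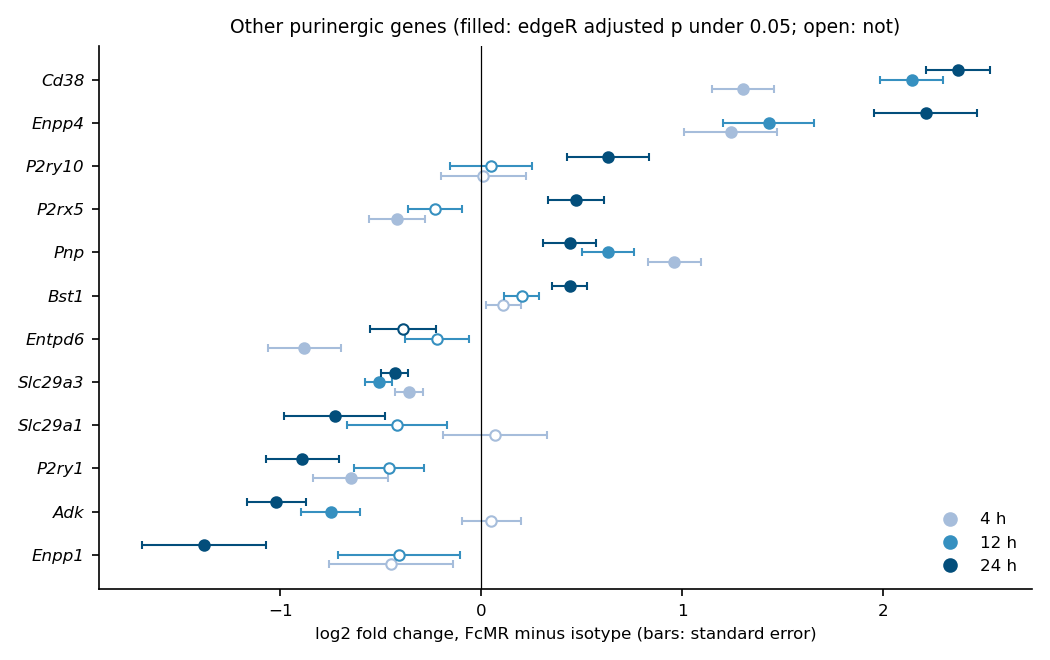
Log2 fold changes, FcMR minus isotype, of the 12 other purinergic genes called at any of the 3 times and averaging 1 or more in log2 CPM, with standard errors. Filled points passed the edgeR adjusted p of 0.05; Cd38 and Enpp4 lie farthest to the right and Enpp1 at 24 h farthest to the left.

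The genes whose log2 CPM over the 21 libraries was most like each member's were found among 8811 genes, as a description. The closest to Adora2b was Nfkbia (Pearson r = 0.987), to Adora2a Slc3a2 (0.983), to P2rx7 Gusb (0.976) and to P2ry6 Tmem86a (0.970). P2ry14 was most like Schip1 (0.966), Entpd1 most like Tm6sf1 (0.958), P2rx4 most like Hk3 (0.953) and P2ry13 most like Pi4k2b (0.910). Between members, P2rx7 and Adora2b ran most opposite (r = -0.94 over 21 libraries), followed by Adora2a and Entpd1 (r = -0.92). All these values share the same libraries, groups and depth.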

How the data were processed

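RNA of 21 libraries was sequenced as 75 bp single-end reads, per the labels' protocols, and the submitters' processing notes name CASAVA 1.8.2, kallisto 0.44.0, DESeq2, mm10 and GRCm38 without their roles. The values the authors deposited as raw are whole numbers and were treated as estimated counts, so rounding changed none. The normalized table deposited by the authors holds a linear signal, each raw value divided by a factor of gene and library, and served as an alternative only. The plan had assumed counts, and its test was kept since it takes such values too.

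IDs were matched to GENCODE M21 (GRCm38), with a symbol for 23187 of 23250 genes. Comparisons rest on the quasi-likelihood test of edgeR 4.0.16 (R 4.3.3), with 1 coefficient per group over all 21 libraries, TMM scaling, and filterByExpr at its minimum of 10 counts, which left 13468 genes and all 8 members. Calls used a threshold of 0.05 on the p-value, adjusted over all genes tested by Benjamini-Hochberg. Totals of 5532225 to 66729533 counts put 3 counts at 0.045 to 0.542 CPM, and these floors cover counting error only. The script was tested on simulated data. A first target for the share of planted changes recovered was missed, and the target was lowered after this was seen. The simulation thus does not show that all true differences are called.

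The members and gene lists were chosen with earlier results of these data known. Every member is named, as is each other listed gene called between FcMR and isotype that averaged 1 or more in log2 CPM. Most like genes are the top by Pearson r over genes averaging 3 or more in log2 CPM. Replicate numbers, which come from the titles, were not treated as pairs. Alternatives were RLE factors, no filter, DESeq2 1.42.0, a filter on mean counts of 10, limma-voom and limma 3.58.1 on log2 of the normalized table plus 1, a GC correction (spline of 4 degrees of freedom), the replicate number as a block with and without it, binomial thinning to the smallest total (chosen after another thinning method had been seen to add noise), leaving out libraries, and fitting only the libraries compared.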

Additional observations from a re-analysis of the deposited data

Results flagged for a closer look

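The joint edgeR quasi-likelihood test found an FcMR effect that differed between the 3 times for 1 of the 8 members and 3 of the 27 other purinergic genes tested. It called 11% of all genes, and both counts lie near that share. For Adora2b, the lower-affinity adenosine receptor, the adjusted p was 0.0306, with log2 fold changes against isotype of 0.82 at 4 h, 1.49 at 12 h and 1.26 at 24 h. The Adora2b call did not hold in 9 of 18 fits with 1 library left out and in 5 of 12 other settings. Cd38 (edgeR adjusted p = 0.0063) was higher with FcMR at each time, by 1.30, 2.14 and 2.37 on the log2 scale. P2rx5 (edgeR adjusted p = 0.0116) was lower with FcMR at 4 h (-0.42) and higher at 24 h (0.47), and with no expression filter the joint adjusted p was 0.053. Its groups overlapped at 4 h, and the 4 h call was lost in many settings, such as DESeq2 (-0.35; adjusted p = 0.0834). Adk (edgeR adjusted p = 0.00502) stood at -0.75 and -1.02 at 12 and 24 h, and limma on the normalized table gave a joint adjusted p of 0.108. No group has more than 3 libraries, so outlying libraries were not tested for.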

How the results depend on the processing

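Of 1536 outcomes for single genes of the 8 over all comparisons and alternatives, 885 from other settings and 538 from leaving out 1 library kept their direction and side of the threshold, 20 and 28 lost the call, 49 and 4 gained it, and 6 and 6 turned direction. At 24 h the number of the 8 called between FcMR and isotype was 7, not 4, without both FcMR 12 h replicate 1 and isotype 4 h replicate 3, whose title numbers stand in each other's place, and 7 with the replicate block and GC correction together. Isotype against untreated called 3 at 4 h when only the libraries compared were fitted, and 7 at 24 h then, with the GC correction, and with the replicate block and GC correction. The joint test over times called 0 in place of 1 without both of those libraries, in limma on the normalized table, with no expression filter and when only the treated libraries were fitted, and 2 with the replicate block and GC correction. Leaving out 1 library gave 0 to 1 for the joint test, 3 to 5, 3 to 4 and 3 to 4 for FcMR against isotype at 4, 12 and 24 h, 5 to 7, 6 to 6 and 3 to 4 for isotype against untreated, and 6 to 8, 6 to 6 and 7 to 7 for FcMR against untreated. The directions that turned were all of uncalled values. P2ry6 with FcMR against untreated at 24 h ran from -0.03 to 0.25 over the fits without 1 library (-0.01 without FcMR replicate 3). P2ry14 with isotype at 24 h was -0.05 with the GC correction, alone or with the replicate block. Adora2b with isotype at 4 h was -0.01 with the GC correction, -0.02 with the replicate block and GC correction, -0.05 with no filter, -0.07 without both libraries, and -0.07 to 0.13 without 1 library. Adora2b with FcMR against untreated at 12 h ran from -0.06 to 0.11 without 1 library.

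Per kilobase of the longest transcript, the untreated levels were 49 for P2rx4, 28 for Entpd1, 21.7 for P2ry6, 10.3 for P2ry14, 3.89 for P2rx7 and 3.31 CPM per kb for Adora2a. Same-numbered libraries of FcMR and isotype deviated together with correlations of -0.166 to 0.199 over genes, so the numbers were not taken as pairs. With the replicate block alone, Entpd1 at 12 h (-0.49; edgeR adjusted p = 0.0357) and P2ry13 at 24 h (0.56; edgeR adjusted p = 0.0175) were also called between FcMR and isotype. Over all genes, edgeR called 2390 between FcMR and isotype at 4 h, but 3898 without both libraries, 868 with only the libraries compared, 3609 with the replicate block and GC correction and 1589 without FcMR replicate 2. At 12 h 2169 became 3279 with the replicate block and GC correction, and, for isotype against untreated at 4 h 4792 became 2881 with only the libraries compared. For the joint test 1484 became 2581 with the GC correction, 2616 without both libraries, 2825 with the replicate block and GC correction, 962 after thinning, 925 with no filter, 973 without FcMR 4 h replicate 2 and 2294 without isotype 4 h replicate 3. The other purinergic genes called at 4 h were 4 in limma on the normalized table or with no filter and 3 with only the libraries compared, and at 24 h 8 in that limma fit or with only the libraries compared. Their joint count of 3 became 9 with the GC correction, alone or with the block, and 6 without both libraries. No filter moved the median log2 difference of all genes by 0.119 for FcMR against isotype and by -0.104 for isotype against untreated at 4 h, and the GC correction moved FcMR against untreated at 24 h by -0.151. The cause was not tested.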
